A study of Mus musculus with 8 samples.

Results

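Genes of hepatic glucose output and glycogen storage were followed in liver RNA of fasted mice given fructose. The 10 genes, named by symbol, were G6pc, Slc37a4, Pck1, Pck2, Fbp1, Pcx, Ppargc1a, Gys2, Pygl and Ppp1r3b. Each symbol matched 1 Ensembl gene, so they were 10 of the 46078 genes in the count table, and all 10 passed the filter on low counts, which left 14654 genes. RNA-seq had been run on livers of 5 WT mice and 3 Rbfox2 KO mice, all of which drank water supplemented with fructose at 30% (w/v) for 22 weeks. The diet began at 8 weeks of age. The methods describe male mice unless stated otherwise, and Rbfox2, which encodes an RNA-binding regulator of splicing, was a loxP/loxP allele cut by Cre recombinase under the albumin promoter. Deletion was therefore aimed at hepatocytes, and other liver cells kept the gene. The labels call the controls wild-type, and by the study's description control mice carried the same loxP/loxP allele without Cre, so the presence of Cre and the deletion cannot be told apart. Both groups shared the diet and the fasted state, so neither tells what fructose or fasting did. The labels do not say whether mice shared a litter or cage. The p-values treat these 8 livers as independent and rest on the variation among them.

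The liver releases glucose by making it from lactate, amino acids and glycerol and by breaking down glycogen, and both routes end at glucose 6-phosphate. Pyruvate carboxylase (Pcx) and phosphoenolpyruvate carboxykinase (cytosolic Pck1, mitochondrial Pck2) carry carbon past the irreversible last step of glycolysis, fructose-1,6-bisphosphatase (Fbp1) reverses another, and glucose-6-phosphatase (G6pc) frees glucose inside the endoplasmic reticulum, which glucose 6-phosphate enters through the transporter Slc37a4. Glucagon acts through cyclic AMP and CREB to induce Pck1, G6pc and the coactivator Ppargc1a in fasting, while glycogen is built by liver glycogen synthase (Gys2), broken down by liver phosphorylase (Pygl), and switched towards synthesis by the phosphatase subunit Ppp1r3b, which targets protein phosphatase 1 to glycogen.

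Promoters of the 3 genes that glucagon induces are printed because cyclic AMP acts on such genes through short CREB-type sequences, and because their transcripts are set beside each other below. RefSeq windows of 300 bases, from 250 before to 50 after each start on GRCm38.p6, were found for 8 of the 10 genes. No window was in the table for Gys2 or Ppp1r3b. Each sequence is written 5′ to 3′ along the gene's own strand. Capitals mark TGACGT or TTACGT on either strand, where ACGTCA and ACGTAA are their reverse complements and the motifs may overlap.
Pck1 (chr2:173152823-173153122, plus strand): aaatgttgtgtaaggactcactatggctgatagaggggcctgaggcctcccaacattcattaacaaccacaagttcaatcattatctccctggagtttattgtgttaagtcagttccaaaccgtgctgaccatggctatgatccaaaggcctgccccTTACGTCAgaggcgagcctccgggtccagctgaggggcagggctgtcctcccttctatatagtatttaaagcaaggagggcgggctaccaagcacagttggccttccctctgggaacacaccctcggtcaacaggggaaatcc
G6pc (chr11:101367466-101367765, plus strand): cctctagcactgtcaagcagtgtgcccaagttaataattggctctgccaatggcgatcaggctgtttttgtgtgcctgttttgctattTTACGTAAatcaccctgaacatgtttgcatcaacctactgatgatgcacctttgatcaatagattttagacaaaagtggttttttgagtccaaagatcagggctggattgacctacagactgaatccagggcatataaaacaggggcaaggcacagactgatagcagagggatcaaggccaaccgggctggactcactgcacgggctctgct
Ppargc1a (chr5:51567676-51567975, minus strand): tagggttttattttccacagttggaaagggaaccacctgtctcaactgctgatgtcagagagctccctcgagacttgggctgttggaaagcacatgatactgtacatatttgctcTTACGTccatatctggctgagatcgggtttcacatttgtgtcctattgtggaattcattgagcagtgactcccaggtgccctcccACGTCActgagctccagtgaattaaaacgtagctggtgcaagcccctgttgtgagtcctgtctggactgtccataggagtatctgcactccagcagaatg
In the Pck1 window both motifs overlapped in the run TTACGTCA, which began 93 bases before the start. In the G6pc window TTACGT on both strands made the run TTACGTAA, 162 bases before the start. The Ppargc1a window held TTACGT at 135 bases and ACGTCA at 50 bases before the start. The motifs were chosen with the sequences in view. TGACGT occurred in windows of 3 of the 8 genes (Pck1, Ppargc1a and Slc37a4), and in 7.51% of 32851 windows over all genes. TTACGT occurred in 4 of the 8 (the same 3 and G6pc), and in 2.72% of windows. A forkhead-type motif, TGTTTNC on either strand, was found for G6pc and Slc37a4 and in 20.5% of windows, and TATAAA on either strand for the same pair and in 13.6% of windows. The glucocorticoid receptor half-site AGAACA on either strand was in 0 of the 8 genes' windows and in 19.0% of all windows. The 8 genes had 11 windows, and a gene counted if any of its windows matched, so counts of genes and shares of windows are unlike measures. These are matches of letters, and binding was not measured here.

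Total counts ran from 24829693 to 37823155 per liver, and 3 counts, taken as the lowest usable level, equalled 0.0793 to 0.121 CPM, a count scaled to a common library size. Levels below are CPM with library sizes adjusted by TMM, the trimmed mean of M-values, whose factors ran from 0.821 to 1.29, and the 21 major urinary protein genes took 6.54% to 35.3% of a library. Rbfox2 itself, the targeted gene, was at 13.96 to 23.2 CPM in WT and 6.84 to 12.4 CPM in Rbfox2 KO livers. Its groups did not overlap, with a log2 fold change of -1.03 ± 0.21 (SE). Its edgeR adjusted p was 0.328, and DESeq2 called it. Hepatocyte markers were abundant in all 8 livers, with 8 of them (Alb, Ttr, Apoa1, Apoc3, Fgb, Ahsg, Trf and Apob) summing to 71148 to 82693 CPM. Rbfox2 KO 1 stood apart in having transcripts of the exocrine pancreas. It also had the highest TMM factor, 1.29, and the lowest share of major urinary protein genes. That share was 6.54%, against 17.8% to 35.3% in the other livers. Rbfox2 KO 1 is named below for some of the values it set.

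Compared per length, the cytosolic gluconeogenic enzymes were far above the others. CPM was divided by the length of the longest protein-coding transcript of each gene in GENCODE M21. Pck1 was highest at 730.1 ± 126 CPM per kilobase (SD, n = 8), followed by Fbp1 at 644 ± 83.8. These neighbours did not differ beyond their spread, since Pck1 was above Fbp1 in 5 of 8 livers. A gap followed to Pcx at 86.0 ± 8.95 CPM per kilobase, all 8 livers lying below the lowest Fbp1 value. G6pc was at 68.8 ± 15.0 and Pygl at 55.2 ± 5.54 CPM per kilobase, and their ranges overlapped each other, as G6pc overlapped Pcx. Gys2 was at 46.0 ± 4.94 CPM per kilobase, below Pygl in 7 of 8 livers. Slc37a4 (32.6 ± 4.64) and Ppp1r3b (31.7 ± 6.38) could not be ranked, with Slc37a4 higher in 5 of 8. Ppargc1a, as a transcriptional coactivator, lay far lower at 1.07 ± 0.302 CPM per kilobase, and Pck2, the mitochondrial isozyme, was last at 0.643 ± 0.242. The same quantity over the union of all annotated exons moved Pygl from 55.2 to 23.95 CPM per kilobase, below Gys2 and Slc37a4, so its place depends on which transcript is assumed.

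None of the 10 genes differed between genotypes past the adjusted threshold. By the edgeR quasi-likelihood test 0 of 10 passed an adjusted p of 0.05, against 0% of all tested genes (0 of 14654). At an unadjusted p under 0.05 there was 1 of 10, Gys2, against 4.74% of all tested genes. The groups did not overlap for 1 of 10, again Gys2, against 3.71% of all tested genes (1.89% with Rbfox2 KO above WT, as Gys2, and 1.82% below). DESeq2 called 0 of 10, against 0.403% of all tested genes. Of the log2 fold changes 7 were above 0, those of G6pc, Slc37a4, Pck1, Pck2, Fbp1, Ppargc1a and Gys2, and 3 below, where 50.2% of all tested genes were above 0. Their median was 0.18, and that of all tested genes was 0.000953. The adjusted p of the 9 genes other than Gys2 was 0.99997 each by edgeR. The 95% intervals were wide, with a median half-width of 0.35 on the log2 scale, and a p that missed the threshold does not show equal levels. In whole liver RNA, fewer cells of a type and less RNA per cell cannot be told apart.

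**Figure D1:**
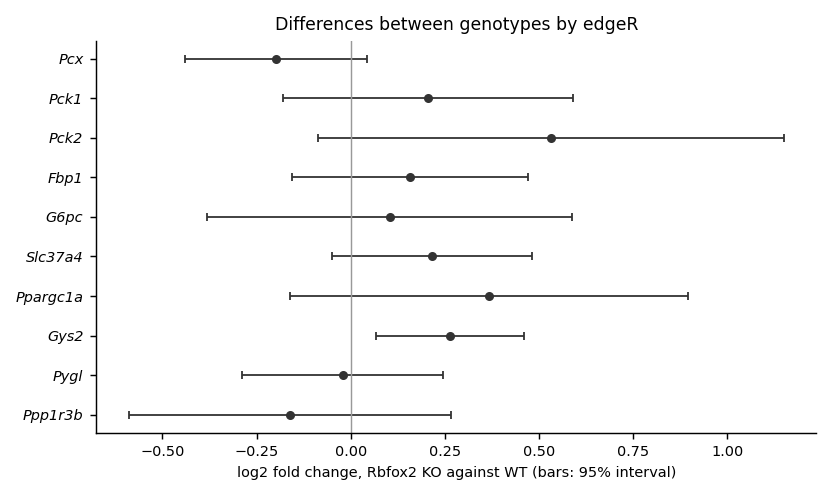
Log2 fold change of each gene in Rbfox2 KO against WT livers (points, x axis) with its unadjusted 95% interval (bars) by edgeR. All intervals but that of Gys2, from 0.07 to 0.46, include 0, and that of Pck2 is the widest, from -0.09 to 1.149.

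The enzymes that make phosphoenolpyruvate from pyruvate had overlapping groups. Pcx, which makes oxaloacetate from pyruvate in mitochondria, had 409.8, 386, 331, 353 and 396 CPM in WT 1 to 5, and 308, 353 and 319.7 CPM in Rbfox2 KO 1 to 3. Rbfox2 KO 1 and 3 were below every WT liver, and Rbfox2 KO 2 lay among them. The means were 375 ± 32.5 CPM (SD, n = 5) and 327 ± 23.2 CPM (SD, n = 3). The log2 fold change was -0.20 ± 0.11 (SE), a fold of 0.872 with a 95% interval of 0.737 to 1.03. Pcx spans 4510472 to 4621752 of chromosome 19 (GRCm38, plus strand).

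Pck1, the cytosolic carboxykinase whose transcript level largely sets its enzyme level, had 1453, 1662, 1708, 2142 and 2223 CPM in WT 1 to 5, and 2038, 1846 and 2470.3 CPM in Rbfox2 KO 1 to 3. The highest liver was Rbfox2 KO 3 and the lowest WT 1, and the groups overlapped. The means were 1838 ± 330.3 CPM (SD, n = 5) and 2118 ± 319.8 CPM (SD, n = 3), with a log2 fold change of 0.20 ± 0.17 (SE). The 95% interval of the fold was 0.882 to 1.51. It was 0.08 without Rbfox2 KO 3 and 0.13 without WT 1, and the largest with a liver left out was 0.29. Pck1 spans 173153048 to 173159273 of chromosome 2 (plus strand).

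Pck2, the mitochondrial isozyme, was barely expressed, at 45 to 119 counts in WT and 74 to 173 counts in Rbfox2 KO livers. Its levels were 1.66, 2.39, 2.46, 2.69 and 3.52 CPM in WT 1 to 5, and 5.43, 2.91 and 2.71 CPM in Rbfox2 KO 1 to 3. Only Rbfox2 KO 1 was above all WT livers. Its log2 fold change was 0.53 ± 0.28 (SE), the largest of the 10, and it was 0.13 without Rbfox2 KO 1. That liver also had 463 CPM of 12 pancreatic exocrine genes, against 4.78 to 17.2 CPM in the other 7, and the part of that tissue in the Pck2 value was not tested. An annotated antisense gene overlaps exons of Pck2, and the counting was not stated to use strand.

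**Figure D2:**
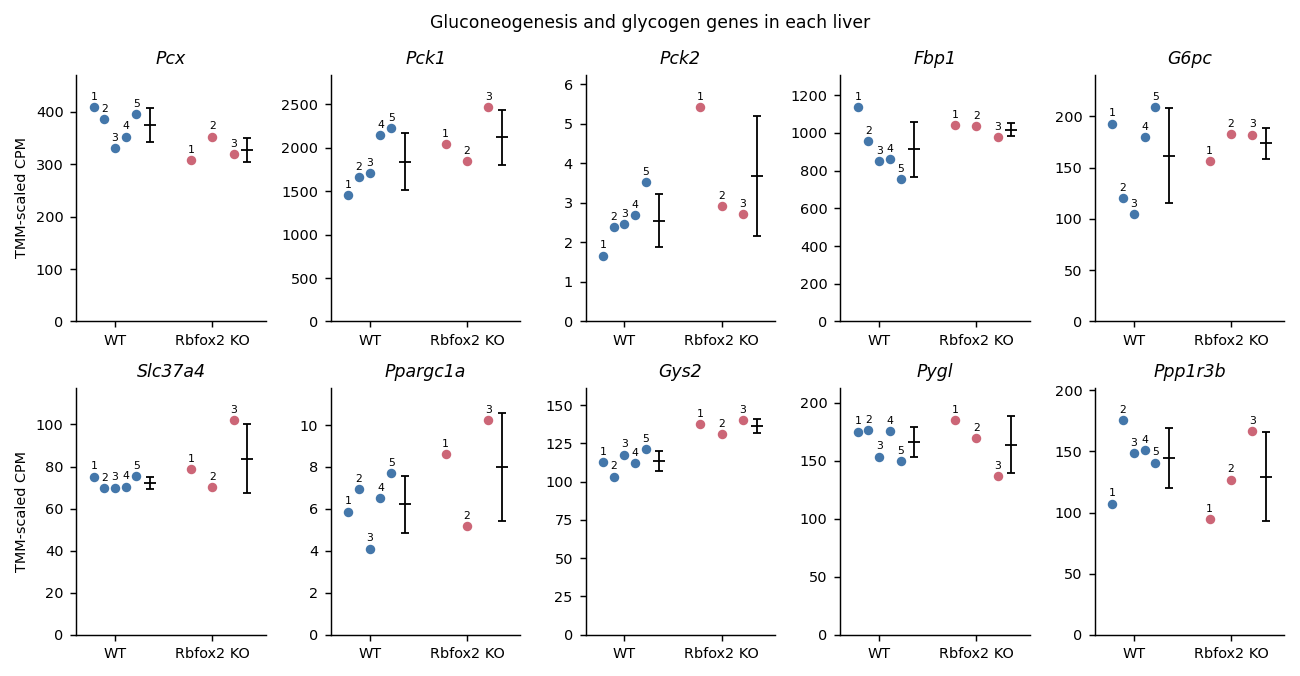
TMM-scaled CPM (y axis, from 0) of the 10 genes in each WT (blue) and Rbfox2 KO (red) liver, numbered as labelled, with mean and SD in black. For Gys2 all 3 Rbfox2 KO livers, at 131 to 140.3 CPM, lie above the 5 WT livers, at 103 to 121 CPM, and for the other 9 genes the groups overlap.

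Fbp1, which removes a phosphate from fructose 1,6-bisphosphate, was at similar levels in both groups. It had 1139, 957, 851, 859.9 and 756 CPM in WT 1 to 5, and 1041, 1035 and 977 CPM in Rbfox2 KO 1 to 3. The Rbfox2 KO livers all lay inside the WT range, between WT 1 and WT 2. The log2 fold change was 0.16 ± 0.14 (SE), with a 95% interval of the fold from 0.897 to 1.39. It was 0.10 without WT 5 and 0.24 without WT 1.

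At the terminal step G6pc varied widely among WT mice and Slc37a4 little. G6pc, the catalytic subunit, had 193, 121, 105, 180.1 and 209 CPM in WT 1 to 5, and 156, 182 and 182 CPM in Rbfox2 KO 1 to 3. WT 2 and WT 3 were low and the other 3 WT livers high, a range of 1.996-fold, and the Rbfox2 KO livers lay inside the WT range. The means were 162 ± 46.1 CPM (SD, n = 5) and 174 ± 15.1 CPM (SD, n = 3). This gave a log2 fold change of 0.10 ± 0.22 (SE), and the 95% interval of the fold was 0.767 to 1.504. G6pc had the largest coefficient of variation over WT of the 10 genes, at 28.5%, where the median of all tested genes was 15.4%. Slc37a4, the transporter that feeds it, had the smallest, at 3.99%. Slc37a4 was at 75.2, 69.6, 70.0, 70.5 and 75.3 CPM in WT 1 to 5, and 78.8, 70.2 and 102 CPM in Rbfox2 KO 1 to 3. Rbfox2 KO 3 alone stood well above the WT livers. Its log2 fold change was 0.22 ± 0.12 (SE), 0.05 without Rbfox2 KO 3 and 0.33 without Rbfox2 KO 2.

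Ppargc1a, which coactivates the gluconeogenic program, was low and variable. It had 5.87, 6.95, 4.11, 6.50 and 7.72 CPM in WT 1 to 5, and 8.63, 5.19 and 10.2 CPM in Rbfox2 KO 1 to 3. Rbfox2 KO 1 and 3 were above all WT livers, while Rbfox2 KO 2 was above WT 3 only. For Ppargc1a the log2 fold change was 0.37 ± 0.24 (SE), and the 95% interval of the fold was 0.894 to 1.86. Single livers moved the log2 fold change, to 0.15 without Rbfox2 KO 3 and 0.60 without Rbfox2 KO 2. Across the 10 genes, Rbfox2 KO 3 was the highest liver for Slc37a4, Pck1, Ppargc1a and Gys2, more genes than for any other liver. Rbfox2 KO 2 and WT 4 were neither the highest nor the lowest for any of them.

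Liver glycogen synthase gave the clearest separation. Gys2 (chromosome 6, 142422613 to 142473109 on the minus strand) had 113, 103, 118, 112 and 121 CPM in WT 1 to 5, and 138, 131 and 140.3 CPM in Rbfox2 KO 1 to 3. Every Rbfox2 KO liver was above every WT liver. The means were 114 ± 6.80 CPM (SD, n = 5) and 136 ± 4.59 CPM (SD, n = 3), a fold of 1.20 with a 95% interval of 1.05 to 1.38. The log2 fold change of 0.26 ± 0.09 (SE) had an unadjusted p of 0.0132, but the edgeR adjusted p was 0.882, so the difference did not pass once all genes were counted. It stayed above 0 in all 20 alternative fits, from 0.23 to 0.38, and its adjusted p ran from 0.213 by DESeq2 to 0.99997.

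The enzyme that breaks glycogen down showed no such separation. Pygl, which releases glucose 1-phosphate from glycogen, had 175, 177, 153, 176 and 149.8 CPM in WT 1 to 5, and 185, 169 and 137 CPM in Rbfox2 KO 1 to 3. Rbfox2 KO 1 was the highest and Rbfox2 KO 3 the lowest of the 8 livers. The log2 fold change was -0.02 ± 0.12 (SE), with a 95% interval of the fold from 0.819 to 1.18, and it was 0.11 with library totals in place of TMM, which moved the median of all genes to 0.12. Ppp1r3b, the hepatic glycogen-targeting subunit, had 107, 176, 148, 151 and 141 CPM in WT 1 to 5, and 94.6, 127 and 167 CPM in Rbfox2 KO 1 to 3. Rbfox2 KO 1 was the lowest liver, next to WT 1. Its log2 fold change was -0.16 ± 0.19 (SE), 0.02 without Rbfox2 KO 1 and -0.39 without Rbfox2 KO 3.

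Ratios within a liver do not depend on library scaling, and 2 are given here, compared by exact permutation (two-sided), where 56 arrangements of the livers allow no p below 0.0179. Counts of Pck1 exceeded those of Pck2 by 632- to 874-fold in WT and by 376-, 634- and 911-fold in Rbfox2 KO 1 to 3. The log2 ratio differed by -0.29 (exact permutation p = 0.429, adjusted over the 3 ratios computed 0.643), and by 0.05 without Rbfox2 KO 1. The ratio of Gys2 to Pygl was 0.585 to 0.810 in WT, and 0.744, 0.777 and 1.03 in Rbfox2 KO 1 to 3. Only Rbfox2 KO 3 lay outside the WT range. The log2 difference was 0.30 (exact permutation p = 0.107, adjusted 0.321).

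Across the 8 livers, 6 pairs of the genes were tested for moving together on the log2 CPM scale, and none passed with TMM scaling. The closest pair was Pck1 and its coactivator Ppargc1a, with Pearson's r of 0.672 (exact permutation p = 0.0686, adjusted over 6 pairs 0.411) and Spearman's rho of 0.643 (p = 0.0962, adjusted 0.536). Without WT 1 and Rbfox2 KO 3, the livers farthest from the median of Pck1, r was 0.580 (exact permutation p = 0.243). Pck1 and G6pc had r of 0.392 (exact permutation p = 0.335, adjusted 0.502) and rho of 0.262 (p = 0.536, adjusted 0.536). Without the same 2 livers their r was 0.847 (exact permutation p = 0.0417, adjusted over 6 pairs 0.25), which did not pass. G6pc and Slc37a4, which act together at the endoplasmic reticulum, had r of 0.337 (exact permutation p = 0.419, adjusted 0.502) and rho of 0.476 (p = 0.243, adjusted 0.536), and r was -0.12 without WT 2 and WT 3. Gys2 had r of -0.37 with Pygl and -0.35 with Ppp1r3b, and Ppargc1a had r of -0.21 with Pcx. Their exact permutation p-values were 0.372, 0.391 and 0.613, and 0.502, 0.502 and 0.613 adjusted. With library totals in place of TMM, r turned to 0.605 for Gys2 with Pygl and 0.547 for Ppargc1a with Pcx, and Pck1 with Ppargc1a passed at r of 0.861 (exact permutation p = 0.00613, adjusted 0.0368). With deviations from the genotype means in place of values, 0 of 6 passed.

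The genes most like Pck1 and Gys2 over the 8 livers were picked from 14644 other genes by Pearson's r of log2 CPM, as a description. For Pck1 they were Gabbr2 (r of 0.975), Adamtsl4 (0.970), Gpsm1 (0.966), Tpp1 (0.959) and Brox (0.955). Gabbr2, a subunit of the GABA-B receptor, ran from 9.12 CPM in WT 1 to 17.7 CPM in Rbfox2 KO 3, the same lowest and highest livers as Pck1. For Gys2 they were Ripk4 (r of 0.970), Camk2d (0.967), Kctd15 (0.963), Marco (0.962) and Grn (0.962). Marco, a scavenger receptor of macrophages, was at 9.02 to 13.5 CPM in WT and 18.5 to 30.9 CPM in Rbfox2 KO livers. All 10 genes share the library of each liver, and the highest values of so many genes have been selected.

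The other genes of the routes were then counted in lists, which together held 112 tested genes. By edgeR 0 of 112 passed an adjusted p of 0.05. DESeq2 called 2, Phkb and Pfkfb1. Of 28 tested genes at other steps of gluconeogenesis, from the pyruvate carriers Mpc1 and Mpc2 to the glucose transporter Slc2a2, 1 was higher and 1 lower at an unadjusted p under 0.05, against 2.41% and 2.33% of all tested genes, and the median log2 fold change was 0.06. The lower one was Car5a, mitochondrial carbonic anhydrase, which supplies bicarbonate to pyruvate carboxylase. It had 33.3 to 94.5 CPM in WT livers, with WT 1 highest, and 24.9 to 31.3 CPM in Rbfox2 KO livers (log2 fold change -0.92 ± 0.32 SE, edgeR adjusted p = 0.924). Slc16a1, a lactate and pyruvate transporter, had 49.7 to 67.6 CPM in WT and 63.9 to 90.6 CPM in Rbfox2 KO livers (0.32 ± 0.14 SE, edgeR adjusted p = 0.99997). Got1, the cytosolic aspartate aminotransferase, ran from 73.3 to 162 CPM in WT, with WT 1 highest. It had 235, 107 and 162 CPM in Rbfox2 KO 1 to 3, with overlap.

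Of 14 genes of glycolysis and its control, 0 were higher and 2 lower at an unadjusted p under 0.05, against 2.41% and 2.33% of all tested genes, and the median log2 fold change was -0.09. Pfkfb1, the liver form of the bifunctional enzyme that makes and degrades fructose 2,6-bisphosphate, the inhibitor of Fbp1, had 14.3, 13.4, 13.3, 12.8 and 17.9 CPM in WT 1 to 5, and 7.69, 10.1 and 10.2 CPM in Rbfox2 KO 1 to 3. Every Rbfox2 KO liver was below every WT liver, with a log2 fold change of -0.62 ± 0.14 (SE; edgeR adjusted p = 0.434). Pfkfb1 passed in 1 of 20 alternative fits, by DESeq2 (adjusted p = 0.0380). Pklr, the pyruvate kinase of liver, whose product Pcx and Pck1 turn back, was at 45.3 to 55.5 CPM in WT and 34.96 to 41.5 CPM in Rbfox2 KO livers, again without overlap (log2 fold change -0.39 ± 0.10 SE, edgeR adjusted p = 0.663). Pfkp, a phosphofructokinase of other tissues, was at 1.546 to 2.57 and 2.24 to 3.26 CPM. Groups did not overlap for 2 of the 14 genes, both with Rbfox2 KO below WT, against 1.82% of all tested genes.

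Of 27 tested genes of glycogen metabolism, 1 was higher and 2 lower at an unadjusted p under 0.05, against 2.41% and 2.33% of all tested genes, and the median log2 fold change was 0.02. Phkb, the beta regulatory subunit of phosphorylase kinase, which activates Pygl, had 14.4, 14.0, 13.3, 14.1 and 14.7 CPM in WT 1 to 5, and 19.0, 19.8 and 17.9 CPM in Rbfox2 KO 1 to 3. The groups did not overlap, which held for 1 of the 27 genes, against 3.71% of all tested genes. Its log2 fold change was 0.42 ± 0.09 (SE). The edgeR adjusted p was 0.328, and Phkb passed in 1 of 20 alternative fits, by DESeq2 (adjusted p = 0.00977). Phka2, the liver alpha subunit of the same kinase, went the other way, with 11.9 to 13.6 CPM in WT and 9.16 to 11.999 CPM in Rbfox2 KO livers (log2 fold change -0.33 ± 0.11 SE, edgeR adjusted p = 0.882). Ppp1r3c, another glycogen-targeting subunit, was at 31.4 to 43.5 CPM in WT, where Rbfox2 KO 1 to 3 had 21.2, 33.9 and 30.6 CPM (-0.44 ± 0.16 SE, edgeR adjusted p = 0.904).

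**Figure D3:**
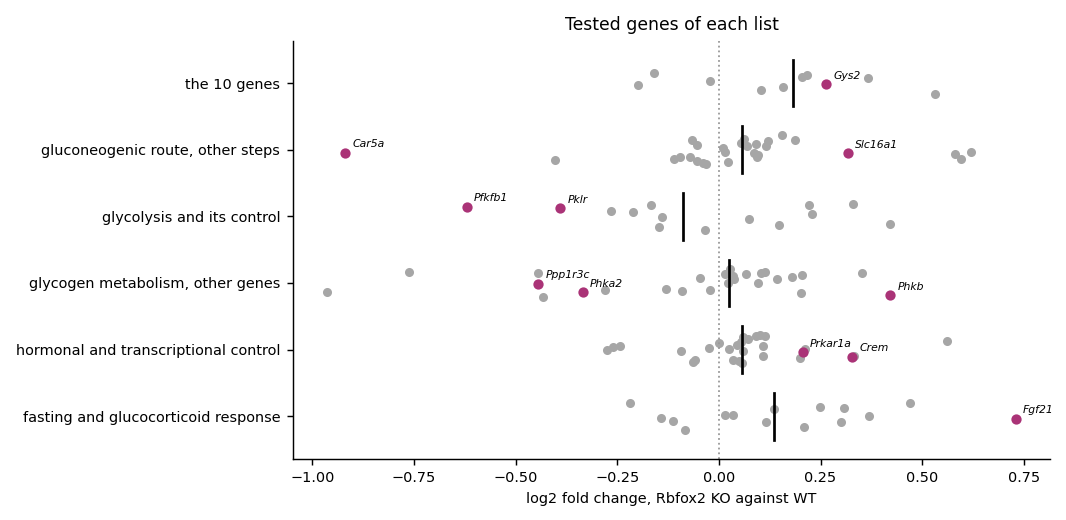
Log2 fold change of every tested gene (points, x axis) in the 10 genes and 5 lists of related genes (rows), with list medians as black bars, the median of all genes dotted, and genes at an unadjusted p under 0.05 named. None of the named genes passed the adjusted threshold by edgeR, and the medians run from -0.09 for glycolysis to 0.18 for the 10 genes.

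Of 28 genes of hormonal and transcriptional control, 2 were higher and 0 lower at an unadjusted p under 0.05, against 2.41% and 2.33% of all tested genes. Crem, a cyclic AMP responsive factor, was at 14.1 to 21.01 CPM in WT and 20.1 to 24.1 CPM in Rbfox2 KO livers, and Prkar1a, a regulatory subunit of protein kinase A, at 97.1 to 113 and 118 to 129 CPM. Their log2 fold changes were 0.33 ± 0.14 and 0.21 ± 0.09 (SE; edgeR adjusted p = 0.99997 for both). Creb1 was at 9.59 to 11.4 CPM in WT and 11.1 to 12.3 CPM in Rbfox2 KO livers (0.20 ± 0.10 SE). Of the 28 log2 fold changes 21 were above 0, against 50.2% of all tested genes, and their median was 0.06. The glucagon receptor Gcgr (0.06 ± 0.12 SE), Foxo1 (0.10 ± 0.16) and Hnf4a (0.00128 ± 0.173), chosen after their values were seen, differed by less than their errors on the same log2 scale.

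Of 15 genes that respond to fasting or glucocorticoids, 1 was higher and 0 lower at an unadjusted p under 0.05, against 2.41% and 2.33% of all tested genes. Fgf21, a hormone of the fasted liver, had 6.75 to 15.8 CPM in WT, where Rbfox2 KO 1 to 3 had 24.3, 17.6 and 14.01 CPM (log2 fold change 0.73 ± 0.25 SE, edgeR adjusted p = 0.894). Tat, an amino acid degrading enzyme induced by glucocorticoids, was at 564 to 769 CPM in WT, where Rbfox2 KO 1 to 3 had 861, 576 and 1164 CPM. Like Pck1 and Ppargc1a, Tat was highest in Rbfox2 KO 3. Angptl4 ran from 110.2 to 147 CPM in WT and from 100.1 to 186 CPM in Rbfox2 KO livers. Of the 15 log2 fold changes 11 were above 0, against 50.2% of all tested genes, and their median was 0.14. The list summed to 9158 to 10589 CPM in WT and to 7131, 11923 and 12462 CPM in Rbfox2 KO 1 to 3, so the Rbfox2 KO livers lay on both sides of WT (exact permutation p = 0.750, adjusted over 7 lists 0.857). The part of nutritional state in the values of the 10 genes was not tested.

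Gluconeogenic enzymes are concentrated in periportal hepatocytes, so zonation markers were set beside them. The 9 periportal genes summed to 4976 to 6243 CPM in WT and 6065 to 7643 CPM in Rbfox2 KO livers (exact permutation p = 0.0714, adjusted 0.500), and 2 of the 9 were higher at an unadjusted p under 0.05, against 2.41% of all tested genes. The 9 pericentral genes summed to 6806 to 8081 CPM in WT and to 3368, 8164 and 7727 CPM in Rbfox2 KO 1 to 3 (exact permutation p = 0.286, adjusted 0.594), and 1 of the 9 was lower at that p, against 2.33%. Log2 fold changes were above 0 for 7 of the 9 periportal and 1 of the 9 pericentral genes, against 50.2% of all tested genes. Their medians were 0.31 and -0.29. DESeq2 called 0 of the periportal and 1 of the pericentral genes, against 0.403% of all tested genes. Rbfox2 KO 1 was low in the pericentral sum and also had the lowest Pcx and Ppp1r3b. The part of zonation in these values was not tested. The hepatocyte sum did not separate the groups (exact permutation p = 0.857, adjusted 0.857).

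Several enzymes exist in a liver and a muscle form, and muscle transcript differed widely between the livers. The 12 skeletal muscle genes summed to 59.6, 22.3, 10.5, 339 and 447 CPM in WT 1 to 5, and 282, 1.45 and 8.87 CPM in Rbfox2 KO 1 to 3 (exact permutation p = 0.339, adjusted 0.594). Muscle phosphorylase, Pygm, had 1.85, 0.905, 0.703, 7.72 and 13.9 CPM in WT 1 to 5, and 6.06, 0.826 and 0.839 CPM in Rbfox2 KO 1 to 3. The highest 3 livers were WT 5, WT 4 and Rbfox2 KO 1 for both. Of the 12 muscle genes 5 had at least 3 counts in every liver, and Acta1 and Myl1 were at 0 in at least 1. The same livers had the 3 highest values of Gys1, the synthase of muscle and other tissues (2.35 to 4.14 CPM against 1.09 to 2.03), of Hk2 (1.92 to 3.36 against 0.452 to 1.03) and of Ppp1r3a (0.439 to 1.21 against 0.0369 to 0.168, near the floor). Of 10 forms of muscle and other tissues looked at, chosen after their values were seen, 6 had this order, Pfkm and Ldhb being the others, and Fbp2, Phkg1, Phka1 and Pygb did not. The 10 genes did not show this order, and Pygl in those livers, at 149.8 to 185 CPM, lay within reach of the other 5, at 137 to 177 CPM. Without those 3 livers 0 of the 10 genes passed the adjusted threshold, and the log2 fold changes were 0.29 for Gys2, 0.43 for Pck1 and 0.39 for G6pc.

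**Figure D4:**
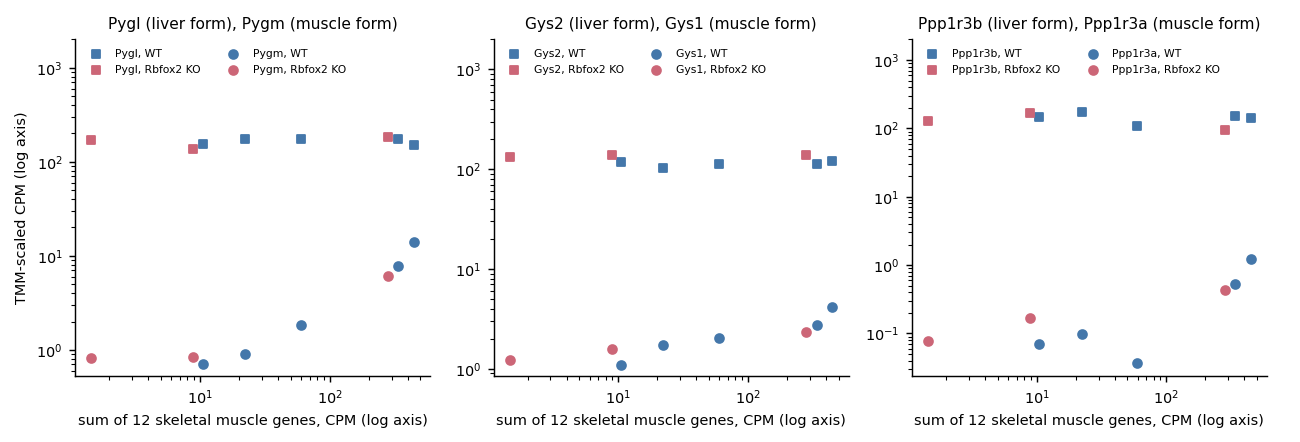
CPM of liver forms (squares) and muscle forms (circles) of phosphorylase, glycogen synthase and a targeting subunit (y axis, log) against the sum of 12 skeletal muscle genes in the same liver (x axis, log), WT in blue and Rbfox2 KO in red. The 3 livers with sums of 282 to 447 CPM have the 3 highest values of each muscle form, while the liver forms stay between 94.6 and 185 CPM in all 8 livers.

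Pck1 is also expressed in fat, and G6pc and Pck1 in kidney. The 5 white adipose genes summed to 0.118 to 3.23 CPM (exact permutation p = 0.768, adjusted 0.857), highest in Rbfox2 KO 1, where Adipoq was at 0.973 CPM. The 6 kidney tubule genes had 0 to 2 counts in sum in 7 livers and 4 counts (0.112 CPM) in Rbfox2 KO 3, and 4 of the 6 genes had 0 counts in every liver. Of the 12 pancreatic genes only Cela1 had at least 3 counts in every liver, and Cpa1 and Try4 were at 0 outside WT 1 and Rbfox2 KO 1. The pancreatic sum did not separate the groups (exact permutation p = 0.179, adjusted 0.594).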

How the data were processed

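The authors deposited raw read counts per Ensembl gene, from paired-end poly(A) libraries that they aligned to GRCm38 with TopHat2 2.0.11 as strand-specific and counted with featureCounts. Whether counting used strand, and the treatment of multiply aligned reads, were not stated. Symbols, positions and lengths came from GENCODE M21 of the same build. Groups came from the labels, and 0 sample columns were left over.

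Genes were filtered with filterByExpr and tested with the robust quasi-likelihood test of edgeR 4.0.16 (R 4.3.3), genotype being the only term, over 14654 genes with Benjamini-Hochberg adjustment at 0.05. SE is the log2 fold change over the square root of F. DESeq2 1.42.0 and limma 3.58.1 (voom) were alternatives. CPM, a share of the TMM-scaled library, was computed with edgeR. Log2 CPM for correlations used a prior count of 2, or a small constant added to CPM where library totals were used. Marker sums were tested as log2(CPM + 1). The procedure was tested on simulated counts.

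The 10 genes and all lists were chosen with earlier results of these data known. Named were the 10 genes, Rbfox2, the 3 genes of each route, control or fasting list with the smallest p, the genes of the ratios given, and the 5 genes most like Pck1 and Gys2. Gcgr, Foxo1, Hnf4a, the marker genes and the forms of muscle and other tissues were named outside this rule. Of the 3 ratios computed, 1 is not reported here. No pair of livers in a group agreed within sampling noise (chi-square per degree of freedom 45.5 to 346). The pairs with Rbfox2 KO 1 were highest, at 264 and 346. Intervals of fold changes rest on the variation among these livers. The floor of 3 counts covers these reads only, which are not independent molecules.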

Additional observations from a re-analysis of the deposited data

Results flagged for a closer look

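In WT 1 the sum of 12 pancreatic exocrine genes was 17.2 CPM, against 4.78 to 5.29 CPM in the other WT livers, so that its gap to the next liver was 0.959 of the WT range, above the critical value of 0.71 for 5 samples. Chance marks about 1 in 20 groups, or 1.75 of the 35 values checked. None of the 10 genes had a WT liver set apart by this measure, and the groups of 3 were not examined. WT 1 had the lowest Pck1 and Pck2 and the highest Fbp1 and Pcx of the 8 livers, and the part of pancreatic RNA in these values was not tested.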

How the results depend on the processing

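The count of the 10 genes past the adjusted threshold was 0 in edgeR and in all 20 alternatives, 8 of which left out a liver. The count over all genes was 0 by edgeR (694 unadjusted), 59 by DESeq2 and 6 with no filter on low counts. For the 112 list genes it was 0, and 2 by DESeq2. Of 200 fits of single genes among the 10, 194 kept their direction. Reversed were Pygl with library totals (0.114) and Ppp1r3b without WT 4, WT 5 and Rbfox2 KO 1 (0.0301). With one liver left out, log2 fold changes ran from -0.0181 to 0.214 for G6pc, from -0.125 to 0.0914 for Pygl and from -0.387 to 0.0158 for Ppp1r3b, reversing without WT 3 for G6pc, without WT 2 or Rbfox2 KO 3 for Pygl and without Rbfox2 KO 1 for Ppp1r3b. The log2 ratio difference ran from -0.588 to 0.0513 for Pck1 to Pck2 and from 0.151 to 0.383 for Gys2 to Pygl. Differences of marker sums on the log2 scale, an alternative added after the data were seen, ran from -0.0685 to 0.334 for fasting, 0.242 to 0.409 for periportal, -0.578 to 0.0611 for pericentral, -0.0529 to 0.0424 for hepatocyte, -3.94 to -0.518 for skeletal muscle, -0.228 to 2.92 for pancreatic and -0.309 to 0.651 for adipose genes, and the hepatocyte sum was 0.0903 with library totals. Correlations reversed for G6pc and Slc37a4 without 2 livers (-0.115), for Ppargc1a and Pcx with genotype deviations (0.112) and library totals (0.547), and for Gys2 and Pygl without 2 livers (0.267) and with library totals (0.605). With library totals Pck1 and Ppargc1a passed (r of 0.861, exact permutation p = 0.00613, adjusted 0.0368). The cause was not tested. Library totals moved the median log2 fold change of all genes to 0.116.

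The labels give 3 shared numbers. Deviations of same-numbered livers correlated at 0.0484 to 0.170, inside the range of other pairs, -0.412 to 0.371. With only 3 such pairs, whether the numbers pair the livers cannot be told. With the replicate block 0 of the 10 genes and 0 of all genes passed, with 739 unadjusted, and no call changed.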
